A study of Mus musculus with 2 samples.

Results

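A set of 7 miRNA genes is described here, each a single hairpin lying alone inside a protein-coding gene: Mir139 in Pde2a, Mir151 in Ptk2, Mir744 in Map2k4, Mir140 in Wwp2, Mir28a in Lpp, Mir149 in Gpc1 and Mir361 in Chm. The 7 genes were picked by name, for their high read counts and their place in a host gene, from 2202 miRNA genes with a row in the count files. High counts are therefore a condition of the choice and not a result. The samples were 2 small-RNA libraries from the gastrocnemius, a calf muscle, of male mice of the strain B6CASTF1/J at 25 days of age. They form 1 group, with no treatment and no contrast in the labels. The labels call the libraries biological replicates 1 and 2 and name 2 animals, but give them 1 donor identifier, so whether the libraries come from separate mice is not settled, and the spread between them may be technical. B6CASTF1/J is the F1 cross of C57BL/6J with the wild-derived CAST strain.

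A miRNA is cut from a hairpin in a longer transcript. Drosha releases the hairpin in the nucleus, Dicer trims it to a short duplex in the cytoplasm, and an Argonaute protein keeps a single strand as the mature miRNA. The seed, bases 2 to 8 of the mature strand, pairs with target mRNAs. A hairpin in an intron on the strand of its host gene can be made from the host's own transcript, without a promoter of its own. Host mRNA was not measured by these libraries, so no host level is given.

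Reads assigned to miRNA genes numbered 1491341 for replicate 1 and 2028332 for replicate 2. Levels are given as CPM, each gene's count scaled to 1e6 of these totals. Reads that aligned to several loci, 69.8% and 71.8% of all reads, are in no gene row. Of 9 striated muscle miRNA genes used to check the tissue, 9 had counts in both libraries. Their summed level was 55093 CPM (replicate 1) and 48416 CPM (replicate 2). Most of it was Mir206, with a mean of 49955 CPM. Mir1a-1, Mir133a-1 and Mir133b had means of only 10.7, 16.6 and 16.1 CPM. Reads shared between the Mir1a loci or the Mir133a loci would be in no gene row. The endothelial gene Mir126a stood at 78275 CPM (replicate 1) and 87525 CPM (replicate 2). In the same order, the smooth muscle and pericyte genes Mir143 and Mir145a together stood at 58854 and 78690 CPM. The red blood cell genes Mir451a and Mir144 summed to 174 and 355 CPM, and 4 leukocyte genes to 2665 and 2294 CPM. The muscle and leukocyte sums were thus lower in replicate 2 and the vascular and red cell sums higher. Genes within the muscle and leukocyte lists did not move together. Of the muscle genes, Mir206, Mir486 and Mir1a-2 were lower in replicate 2, and Mir208b, Mir499, Mir133a-1, Mir133b and Mir1a-1 higher. The last 3 rest on 18, 18 and 15 counts in replicate 1. They did not pass the exact binomial test described below (adjusted p = 0.111, 0.133 and 0.84). Mir133a-2 was not among the genes tested and is not placed. Of the leukocyte genes, Mir150 and Mir155 were lower and Mir142 and Mir223 higher. The part of these differences in the library differences of the 7 genes was not tested. The liver gene Mir122 had 13.4 and 11.3 CPM. Of 6 neuronal Mir124a and Mir9 genes, 5 had no count in either library. Reads shared between several Mir124a or Mir9 loci would be in no gene row, so these zeros do not show the level of neuronal miRNAs. Where no read was counted, depth alone leaves room for up to 2.01 CPM (replicate 1) or 1.48 CPM (replicate 2), the level of 3 counts. This bound covers only reads that align to 1 locus.

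The annotated mature sequences, which set what these hairpins can target, are written with the seed in capitals, 5′ to 3′, from RefSeq (GRCm38.p6, the sequence of mm10). The RefSeq records used gave 11 mature sequences for 6 of the 7 genes. They held none for Mir151 and only the 3p strand for Mir140, so the seeds of the missing strands were not examined.
miR-139-5p: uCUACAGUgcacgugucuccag
miR-139-3p: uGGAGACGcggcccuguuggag
miR-744-5p: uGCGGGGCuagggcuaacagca
miR-744-3p: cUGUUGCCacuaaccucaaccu
miR-140-3p: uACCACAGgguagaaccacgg
miR-28a-5p: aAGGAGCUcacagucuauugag
miR-28a-3p: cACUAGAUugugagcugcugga
miR-149-5p: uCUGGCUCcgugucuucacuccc
miR-149-3p: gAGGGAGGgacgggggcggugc
miR-361-5p: uUAUCAGAaucuccagggguac
miR-361-3p: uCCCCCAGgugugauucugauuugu
No seed occurred more than once among these 11 sequences, so the printed strands carry 11 different seeds. They also differ in base composition, from 45.5% G and C in miR-28a-5p and miR-361-5p to 81.8% in miR-149-3p. The counts are per hairpin and do not say which arm a read came from.

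The whole hairpins show how these strands lie in their precursors. They are printed for the 5 genes with a RefSeq hairpin, with the mature sequences above in capitals. The 5′ arm of Mir140 is in lower case because no mature sequence for that arm was at hand.
Mir139 (chr7:101475376-101475443, plus strand): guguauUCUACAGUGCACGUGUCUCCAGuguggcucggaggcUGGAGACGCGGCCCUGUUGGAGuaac
Mir744 (chr11:65734733-65734832, minus strand): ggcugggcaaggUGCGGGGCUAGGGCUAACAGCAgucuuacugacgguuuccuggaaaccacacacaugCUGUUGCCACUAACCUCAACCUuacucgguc
Mir140 (chr8:107551244-107551313, plus strand): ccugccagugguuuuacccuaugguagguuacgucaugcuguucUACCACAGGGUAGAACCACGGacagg
Mir149 (chr1:92850378-92850443, plus strand): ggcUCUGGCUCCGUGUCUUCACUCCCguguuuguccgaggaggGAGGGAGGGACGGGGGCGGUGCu
Mir361 (chrX:113074824-113074893, minus strand): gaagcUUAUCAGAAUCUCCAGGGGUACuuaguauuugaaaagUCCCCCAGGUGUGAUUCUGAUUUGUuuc
Mir151 lies at chr15:73254815-73254882 on the minus strand and Mir28a at chr16:24827855-24827940 on the plus strand. At 100 bases the Mir744 hairpin was the longest of the 7, whose median was 70 bases against 84 for the 313 genes that reached a sum of 10 counts in the libraries.

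All 7 hairpins were intronic in the principal coding transcript of the host in GENCODE M21, on the strand of the host. Mir139 lay in intron 2 of Pde2a, 53.7 kb from the start site, Mir744 in intron 3 of Map2k4 and Mir149 in intron 1 of Gpc1. Mir151 lay in intron 22 of Ptk2, Mir28a in intron 8 of Lpp, 434 kb from the start site, Mir140 in intron 16 of Wwp2 and Mir361 in intron 9 of Chm. The introns differed widely in size. Mir28a sat in 82814 bases of intron and Mir140 in 2141 bases, with 963 bases to the next exon. Mir744 was the closest to an exon, 359 bases downstream of it. The hairpins lay from 53.4% of the way along Map2k4 to 94.0% of the way along Wwp2. Mir140 also falls within an exon of a retained-intron transcript of Wwp2, Wwp2-206. Mir139 lies in a further annotated coding gene, Gm45837, that covers the same stretch as Pde2a, and Mir151 is crossed on the other strand by 1700085D07Rik. The nearest other miRNA gene on either strand was between 290 kb (Mir140) and 3049 kb (Mir361) away.

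**Figure D1:**
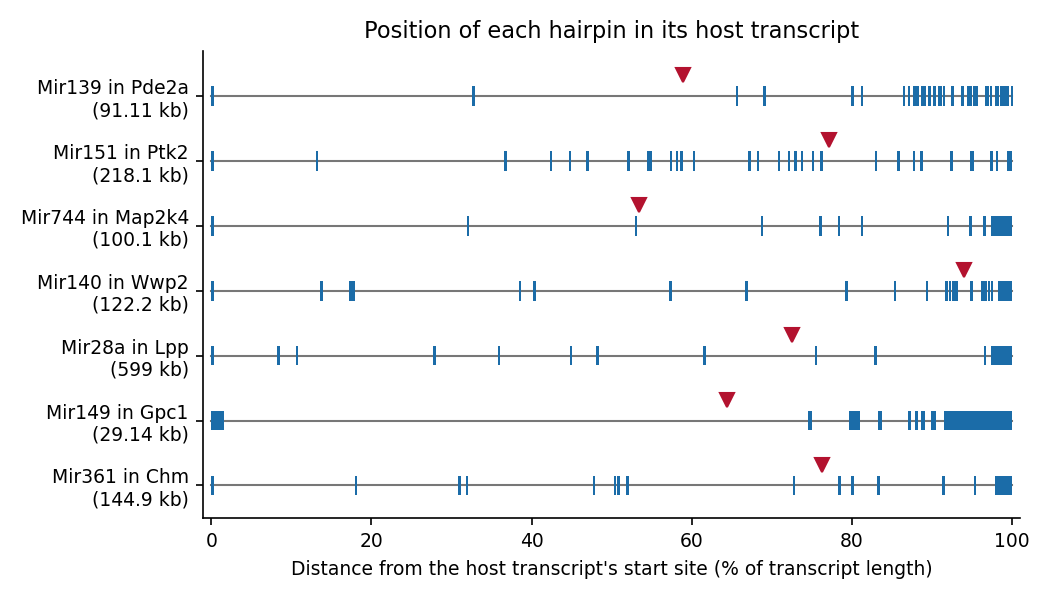
Position of each hairpin (red triangle) along the principal coding transcript of its host, as a percentage of transcript length from the start site; blue boxes are exons, narrow ones drawn at a minimum width, and the transcript length is in brackets. All 7 hairpins sit between exons, at 53.4% to 94.0% of the transcript.

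Because reads that align to several loci are dropped, a hairpin that resembles another can lose reads. Among the 7 genes only Mir28a shared a stretch of 20 bases with another annotated miRNA gene, which is 14.3% of them. The share was 16.2% (16 of 99) for all genes alone in a coding host with 10 or more counts in sum, the 7 included. It was 24.3% over the 313 genes and 49.4% over all 2202 genes with a row. Genes that share sequence can lose reads, so a choice by counts can itself lower the share. The partner of Mir28a was Mir28c, and 20 of the 22 bases of miR-28a-5p lie in their shared stretch. Mir28c itself had 0 counts in both libraries. How many Mir28a reads were left out was not tested. Mir151 shared 17 bases with Mir28c and the others at most 15 bases with any miRNA gene. None of the 11 mature sequences was found in a transcript of another gene on either strand, apart from the miR-140-3p sequence in its host Wwp2. Copies in introns or between genes were not searched.

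Together the 7 genes held 47665 counts in replicate 1, or 3.20% of gene counts (exact 95% interval 3.17 to 3.22), and 57984 in replicate 2, or 2.86% (2.84 to 2.88). The mean was 3.03 ± 0.239% (SD, n = 2). These intervals did not overlap, but they hold counting error alone, as reads that are PCR copies of each other are not separate molecules. Mir139 alone gave 34.0% of these counts in replicate 1 and 29.1% in replicate 2. The highest gene exceeded the lowest by 5.84-fold in replicate 1 and 4.76-fold in replicate 2.

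A pair of hosts, Pde2a and Map2k4, are signalling enzymes. Pde2a breaks down cyclic nucleotides and its hairpin Mir139 had the highest level, with 16219 counts (10875 CPM) in replicate 1 and 16867 counts (8316 CPM) in replicate 2. Although replicate 2 was the deeper library, it gave nearly the same number of Mir139 reads, and the level was lower there. The mean was 9596 ± 1810 CPM, rank 22 among all genes. Map2k4 is a kinase that activates the stress kinase JNK, and its hairpin Mir744 had 6576 counts (4409 CPM) and 8160 counts (4023 CPM). These values lay closer together, with a mean of 4216 ± 273 CPM.

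The hosts Ptk2, Lpp and Gpc1 act at the cell surface or at adhesions. Ptk2, the focal adhesion kinase, holds Mir151, which had 8776 counts (5885 CPM) and 11546 counts (5692 CPM). Its mean was 5788 ± 136 CPM, with the libraries nearly level. Lpp, a LIM-domain protein of focal adhesions, holds Mir28a, with 4286 counts (2874 CPM) and 5771 counts (2845 CPM). Of the 7 genes it varied least, at 2860 ± 20.3 CPM, a coefficient of variation of 0.710%. Gpc1 is glypican-1, a heparan sulfate proteoglycan of the cell membrane, and its hairpin Mir149 had 3889 counts (2608 CPM) and 4132 counts (2037 CPM). Replicate 2 was again the lower library, and at 2322 ± 403 CPM the coefficient of variation was 17.4%, close to the 18.9% of Mir139.

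The remaining hosts serve protein turnover and membrane traffic. Wwp2 is a ubiquitin ligase whose hairpin Mir140 is known above all from cartilage, where it acts in skeletal growth. Mir140 had 5140 counts (3447 CPM) and 7966 counts (3927 CPM). It was the only one of the 7 with a higher level in replicate 2, at 3687 ± 340 CPM. Cells of cartilage or tendon were not tested for separately. Chm encodes a Rab escort protein needed to attach lipid anchors to Rab GTPases, and its X-linked hairpin Mir361 had 2779 counts (1863 CPM) and 3542 counts (1746 CPM). It was the lowest of the 7 in both libraries, at 1805 ± 82.9 CPM and rank 49 in each.

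**Figure D2:**
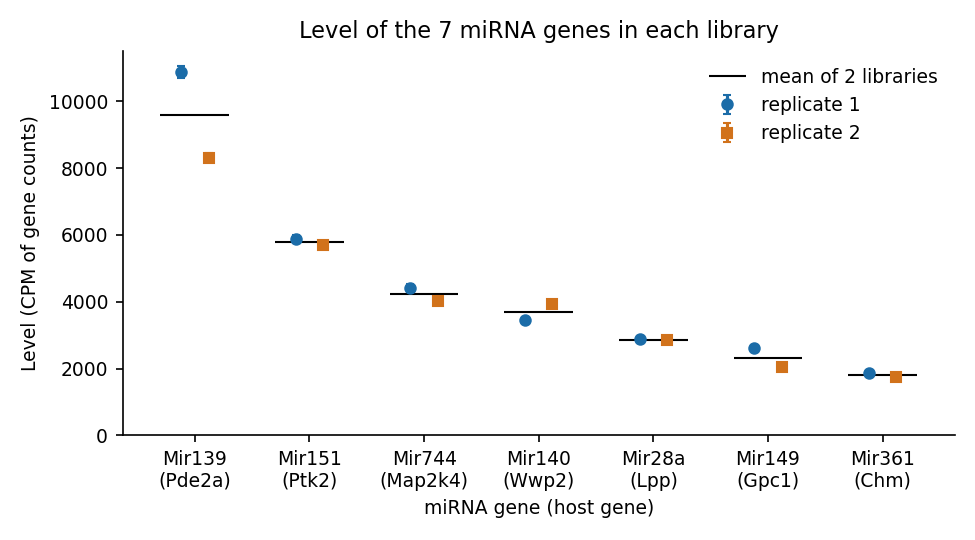
Level of each gene in CPM of gene counts (y axis) for replicate 1 (blue circles) and replicate 2 (orange squares), with exact 95% intervals that are mostly hidden by the symbols and the mean as a black line. Mir139 and Mir149 lie lower and Mir140 lies higher in replicate 2, while Mir151, Mir28a and Mir361 are nearly level.

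The order of levels was Mir139, Mir151, Mir744, Mir140, Mir28a, Mir149 and Mir361 in both libraries. At 5 of the 6 steps the gap between means exceeded the summed SDs of the neighbours. The exception was Mir744 over Mir140, with a gap of 529 CPM against summed SDs of 613 CPM. The SDs were summed without pairing the genes by library. Even so, the lower Mir744 value, 4023 CPM, was above the higher Mir140 value, 3927 CPM, both in replicate 2. Their log2 ratio was 0.35 in replicate 1 and 0.035 in replicate 2. The narrowest of the other steps was Mir149 over Mir361, with 518 CPM against 486 CPM. A CPM of miRNA reads is not scaled to length, since a read covers a whole mature strand. Divided by hairpin length, mean levels were 141 CPM per base for Mir139, 85.1 for Mir151, 52.7 for Mir140, 42.2 for Mir744, 35.2 for Mir149, 33.3 for Mir28a and 25.8 for Mir361. On this scale Mir140 stood above Mir744 and Mir149 above Mir28a. Ligation and amplification favour some small RNAs over others, so an order of CPM need not be an order of molecules.

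No read of any of the 7 genes was counted on the opposite strand, in either library. Their counts without regard to strand equalled those on the strand of the gene. For comparison, the higher hosted genes Mir378a and Mir126a, each annotated with a miRNA gene on the other strand, fell from 223560 and 116735 counts in replicate 1 to 0 in the column without strand.

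Other miRNA genes with the same kind of locus give the setting for these levels. By annotation, 754 more miRNA genes lay inside a protein-coding gene on its strand with no other miRNA gene within 10 kb on that strand. Of these 490 had no count in either library and 70 had at least 10 counts in both. The list was drawn up with earlier results of these data known. Ranked by mean CPM with the other 754, the 7 genes took places 9 and 11 to 16, with Mir196b of Hoxa9 (6093 ± 1454 CPM) at place 10. Directly above Mir139 stood Mir21a in Vmp1 at 11739 ± 1194 CPM, and directly below Mir361 stood Mir196a-2 in Hoxc5 at 1415 ± 154 CPM. The first 5 places went to Mir378a in Ppargc1b, Mir126a in Egfl7, Mirlet7g in Wdr82, Mir26b in Ctdsp1 and Mir10b at Hoxd3 and Hoxd4. All solitary hosted genes together held 43.5 ± 1.00% of gene counts, and the 7 genes made up 6.95 ± 0.388% of that part. These ranks describe the choice and were not tested.

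**Figure D3:**
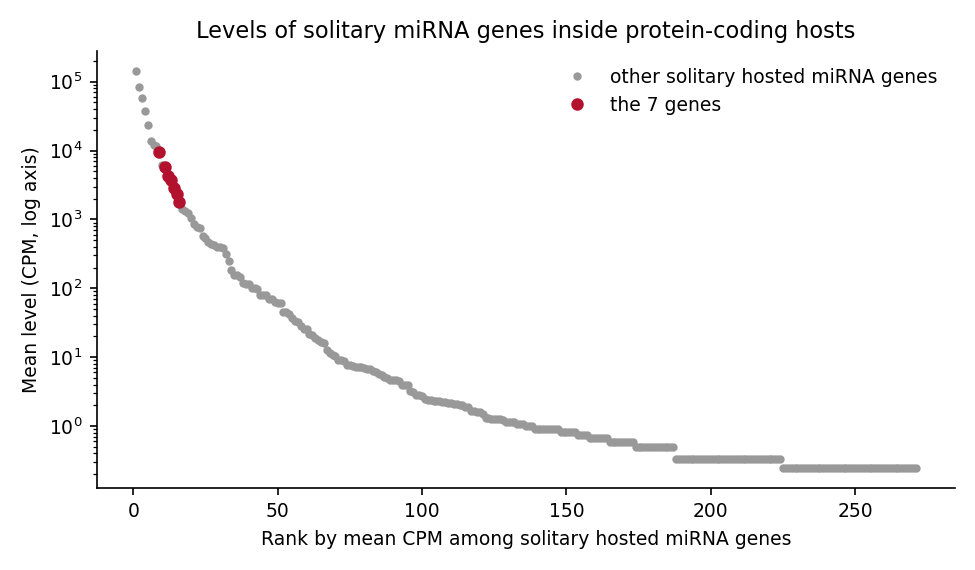
Mean level in CPM (log axis) of solitary hosted miRNA genes with at least 1 count, ordered by rank, with the 7 genes in red and the others in grey. The 7 genes lie between ranks 9 and 16, on the steep upper part of the curve.

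Among genes with the seed of a printed strand, Mir708 was the only one with more than 4 counts in a library. Mir708, whose mature strand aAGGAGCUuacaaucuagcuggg has the seed of miR-28a-5p, had 249 counts (167 CPM) and 399 counts (197 CPM). It too lies alone in a coding host, Tenm4, and at 182 ± 21.04 CPM its mean level was far below the 2860 CPM of Mir28a. Mir28b, with 2 counts in each library, has a mature strand that shares 11 bases with miR-28a-5p but not its seed. The seed of miR-140-3p recurred in miR-497b, whose gene had no counts. The seed of miR-149-3p recurred in miR-1943-5p, with 1 and 4 counts, and in miR-7016-5p and miR-6967-5p, with none. For the other 8 printed strands no further RefSeq mature miRNA had the seed.

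Genes at the most similar level over the 2 libraries were found by distance in log2(CPM + 1) among 267 genes with at least 10 counts in each. Nearest to Mir139 was Mir379 at 9210 ± 446 CPM (distance 0.21), and to Mir151 it was Mir191 at 6214 ± 1046 CPM (0.25). Mir744 was closest to Mirlet7f-2 (0.11) and Mir28a to Mir98 (0.18), and both of these lie in Huwe1. Mir140 was closest to Mir382 (0.33), Mir149 to Mir337 (0.25) and Mir361 to Mir125a (0.12). With 2 points per gene this is a likeness of level only.

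For each gene the counts of the libraries were set against each other in a two-sided exact binomial test. It holds counting error alone and compares these libraries, not conditions. Of the 7 genes 4 passed at an adjusted p under 0.05. Mir140 was higher in replicate 2, while Mir139, Mir744 and Mir149 were lower. Over all 313 tested genes 38.3% were called, 19.8% as higher in replicate 2 and 18.5% as lower, and the test reaches smaller differences at higher counts. Among the 49 genes with at least the 6321 summed counts of Mir361, the lowest of the 7, 81.6% were called, 34.7% as higher and 46.9% as lower. The count of 4 among 7 lies between these shares.

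Mir139 had the largest difference, with -0.38 as log2 ratio of replicate 2 over replicate 1 (-0.41 to -0.35, the exact 95% interval; adjusted p = 1.4e-122, exact binomial test). Mir149 followed at -0.35 (-0.41 to -0.28, adjusted p = 1.02e-25, exact binomial test). Mir744 stood at -0.12 (-0.17 to -0.075, adjusted p = 1.62e-06) and Mir140 at 0.20 (0.15 to 0.25, adjusted p = 6.89e-14) in the same test. All 4 are differences of less than 1.5-fold, from 0.770 of the replicate 1 level for Mir139 to 1.15 times it for Mir140.

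Mir151, Mir361 and Mir28a did not pass. Their log2 ratios were -0.038 (interval -0.078 to 0.0027, adjusted p = 0.133), -0.083 (-0.16 to -0.011, adjusted p = 0.0571) and -0.0041 (-0.061 to 0.053, adjusted p = 0.934, exact binomial test). The intervals are not adjusted for the number of genes, so that of Mir361 leaves out 0 although its adjusted p is above the threshold. For Mir28a the interval reaches no further than -0.061 and 0.053, by counting error alone. The median over the 7 genes was -0.083, beside 0.051 over all tested genes and 0.081 over the 92 tested other solitary hosted genes. Among those 92 genes, 14 passed as higher in replicate 2 and 13 as lower, and the other 65 did not pass.

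With the spread between the libraries added to counting error, none of the 7 genes passed (edgeR exact negative binomial test, adjusted p = 1 for each), and 0 had an unadjusted p under 0.05. Over all genes that test called 0 of 313, a share of 0%, and 15 had an unadjusted p under 0.05. The spread, a biological coefficient of variation of 18.0% over 267 genes, was estimated from the same 2 libraries, which weighs against passing any gene.

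**Figure D4:**
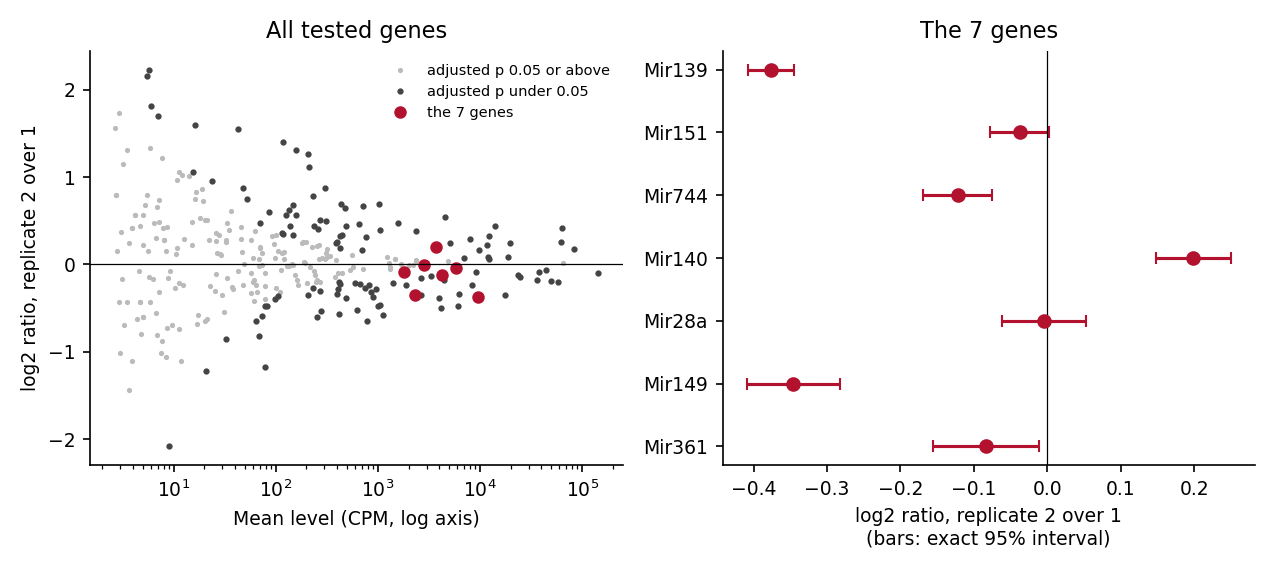
Left, log2 ratio of replicate 2 over replicate 1 against mean CPM (log axis) for the 313 tested genes, with called genes dark and the 7 genes red. Right, the 7 ratios with exact 95% intervals, where Mir139, Mir744 and Mir149 lie below 0 and Mir140 above it without their intervals reaching 0.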

How the data were processed

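The 7 genes and the lists were chosen with earlier results of these data known. Small-RNA libraries from 2 gastrocnemius samples of 1 group were used. For each miRNA gene the authors deposited raw counts of reads, made on mm10 with GENCODE M21, per the text files deposited beside them. Aligner and settings: not given in the sources used here. Of the 3 count columns, the one for the strand of the gene was used, and the 4 summary rows, which hold 80.1% and 79.4% of all reads, were left out of totals and tests. Depth was 1491341 and 2028332 gene counts.

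Symbols, coordinates, hosts and hairpins came from GENCODE M21, in which all 2202 gene identifiers were found. Mature and printed hairpin sequences came from RefSeq. A gene that shares 20 bases with another miRNA gene at a different locus was marked. The libraries were compared with an exact binomial test (SciPy 1.17.1) on TMM-scaled totals (edgeR 4.0.16, R 4.3.3), with Benjamini-Hochberg adjustment over 313 genes with at least 10 counts summed. With 1 group, the quasi-likelihood test had no contrast. Genes named beside the 7 are the 5 highest solitary hosted genes, those next to the 7 in rank, the nearest gene in level to each and genes that share a seed. Mir196b and Mir28b were named after their values were seen. The binomial step was tested on simulated data that held counting error alone. These data lacked the spread seen between the libraries, so they do not show how the step behaves on the real counts. Alternatives were DESeq2 1.42.0 size factors, total counts, other filters, the column without strand, other totals, each library alone and a negative binomial test.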

Additional observations from a re-analysis of the deposited data

How the results depend on the processing

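Levels in CPM depend on the total they are divided by, and a change of total alone cannot change the order of genes within a library. The column without regard to strand also changes the counts of other genes, such as Mir378a and Mir126a, and so their order. It leaves the counts of the 7 genes as they were, so their levels rise there only through the smaller total. On the column without regard to strand, mean levels were 12841 CPM for Mir139, 7745 for Mir151, 5642 for Mir744, 4933 for Mir140, 3826 for Mir28a, 3108 for Mir149 and 2415 for Mir361. With a total that leaves out genes sharing 20 bases, they were 14192, 8564, 6237, 5456, 4231, 3435 and 2670 CPM in that order. Scaled to 1e6 of all reads, the summary rows included, they were 1939, 1172, 853, 748, 579, 469 and 365. The share of the 7 genes was 4.05%, 4.48% and 0.613% on these totals, and 2.86% to 3.20% with each library alone. Scaled to total gene counts, 5 of the 7 genes were called lower in replicate 2, since Mir151 at -0.048 and Mir361 at -0.094 on the log2 scale passed as well. The adjusted p was 0.05 as rounded for Mir151, at the threshold, and 0.0294 for Mir361 (exact binomial test). Over all 313 tested genes that setting called 38.3%, with 60 genes higher and 60 lower. No share is given in that setting for genes with counts as high as those of the 7. Tested only with genes of at least 100 summed counts, Mir361 at -0.083 passed. On the column without strand Mir28a changed sign, to 0.016, with no call in either. In the negative binomial test 0 genes were called in either direction, where Mir139 (-0.38), Mir149 (-0.35), Mir744 (-0.12) and Mir140 (0.20) had passed the binomial test. DESeq2 size factors and no filter on low counts changed no call among the 7 genes. Over all genes, 120 of 313 were called with TMM, 110 of 570 without a filter and 115 of 214 with at least 100 counts. The other solitary hosted list fell from 754 to 690 genes at 50 kb, and the 7 genes then took places 8 and 10 to 15. With 2 libraries of 1 group, no spread between animals can be told apart from technical spread.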

Other observations

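The 7 hairpins were also folded in silico. The minimum free energy of folding (RNAfold 2.7.2) ranged from -28.6 kcal/mol for Mir361 to -44.8 kcal/mol for Mir744. Per base it was strongest for Mir151 at -0.610 kcal/mol and weakest for Mir361 at -0.409 kcal/mol. The median of the 7 genes, -0.523 kcal/mol per base, lay beside -0.433 for the 313 tested genes and -0.453 for the 99 tested genes that lie alone in a coding host, the 7 included. G and C made up 41.4% of the Mir361 hairpin and 68.2% of the Mir149 hairpin, with a median of 56.0% against 50% for the tested genes. No test was run on these values.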
